A study of Macaca fuscata with 18 samples.

Results

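The proteasome is the protease complex that breaks down ubiquitin-tagged proteins, and its subunit genes were examined in tissue of the subventricular zone of the macaque brain after transient ischemia. All symbols that begin with PSMA, PSMB, PSMC or PSMD and end in a number were taken, which gave 39 symbols of 19747 and 54 transcript rows of 29686. Each symbol was represented by its transcript with the highest mean CPM (its count divided by the library total and scaled to a common total), since transcripts of a gene share reads, and 11 of the 39 symbols had more than 1 row.

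A proteasome consists of a barrel-shaped core and a regulatory particle that docks on its ends. The core is built of rings of alpha subunits (PSMA genes), which form the gate, and rings of beta subunits (PSMB genes), of which PSMB5, PSMB6 and PSMB7 carry the cutting sites. In immune cells and in other cells exposed to interferon, PSMB8, PSMB9 and PSMB10 take the places of PSMB5, PSMB6 and PSMB7, and the complex is then called the immunoproteasome, known for making peptides for antigen presentation. The regulatory particle holds a base with a ring of ATPases (PSMC genes) and scaffold and ubiquitin-binding subunits, and a lid that removes ubiquitin. Resting brain tissue is known to express mainly the constitutive form, and immunoproteasome subunits are found in microglia and blood vessels.

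The tissue was the SVZa, the subventricular zone at the anterior horn of the lateral ventricle, dissected from the striatal side of the right hemisphere of Japanese macaques (Macaca fuscata) 4 to 6 years old. In the 3 ischemic monkeys (MK503, MK506 and MK507) the brachiocephalic trunk and the left subclavian artery had been clipped for 18 min. The 3 sham monkeys (MK501, MK504 and MK508) had a sham operation. All 6 were killed 7 days after surgery. From each monkey 3 adjacent fragments were sequenced, read here from the A number of the labels (A1, A2 and A3), which gave 9 libraries a group. The model is global ischemia followed by reperfusion at a single time point, and the tissue is a mixture of cell types, so a lower level of a transcript in bulk tissue can reflect fewer cells of a type or less RNA per cell, which cannot be told apart.

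The libraries held 18076257 to 74551396 counts. The monkeys were compared in pairs, each given here with its sham monkey first: MK504 and MK503 in pair 1, MK501 and MK507 in pair 2, MK508 and MK506 in pair 3. The labels do not name pairs. Monkeys with the same column number in the study's expression table were taken as partners, which is an assumption. Pair 1, called the first pair below, differed from the rest: the nuclear RNA MALAT1 made up 1.09 to 1.27% of all counts in each of its 6 libraries, compared with 0.036 to 0.235% in the remaining 12, its libraries were shallower (18076257 to 27419647 counts), and POLE2 took 5.16 to 5.59% of the counts of A2MK504, A3MK504 and A2MK503. The sham library A2MK501 stood apart through genes of the choroid plexus, whose 7 markers summed to 69960 CPM there and to between 9.75 and 7018 CPM in the other 17 libraries. Markers of the tissue's cell types were present in both groups, and none of the listed markers was at 0 in all monkeys, although CD79A had no row. Between the groups, all 6 oligodendrocyte markers were higher in ischemia at an unadjusted p under 0.05 (summed level 12883 to 22237 CPM, against 2549 to 18221 in sham). All 7 striatal neuron markers had a lower value, 4 of them at an unadjusted p under 0.05 (749 to 4209 CPM, against 2042 to 6164), as had all 7 general neuron markers, 1 of them at that threshold (2415 to 3231 CPM, against 3012 to 3871). The 7 choroid plexus markers were lower in ischemia, 6 of them at that threshold, and their sums did not overlap (36.8 to 96.9 CPM, against 496 to 22152). The sham sums rested mainly on A2MK501, A1MK504 and A1MK508 (69960, 7018 and 1319 CPM). The other libraries of MK504 and MK508 had 9.75 to 27.5 CPM. Such sums of single libraries are scaled by the library total alone, whereas sums by monkey are normalized by TMM as well. Of 10 microglia markers 5 had a lower and 5 a higher value, and of 7 endothelial markers 6 had a lower value. Of 7 astrocyte markers 4 had a higher and 3 a lower value, and 3 were higher at an unadjusted p under 0.05. Among these was GFAP, the astrocyte intermediate filament gene (1541 to 3997 CPM in sham, 4562 to 7204 in ischemia). The sums of the 7 were 9640 to 14759 CPM in ischemia and 6695 to 11458 in sham. All 5 lymphocyte markers tested had a lower value, 0 of them at that threshold. The part of these cell types in the subunit differences given below was not tested.

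Of the 39 symbols, 37 passed the filter on low counts. PSMA8, the alpha subunit known from spermatocytes in the mouse, had 1 count in all 18 libraries together, and PSMB11, the beta subunit of the thymus, had 51 counts, at most 0.159 CPM in any monkey. Of the 37, 35 had a mean of at least 10 CPM over the monkeys, up to 216 CPM for PSMD2. The exceptions were the immunoproteasome subunits PSMB8 (4.03 CPM) and PSMB9 (5.82 CPM), whereas PSMB10 reached 38.8 CPM. CPM values use as total the counts of the table with 1 row a symbol. They are normalized by TMM, except for the sums of marker and gene lists in single libraries. They are not divided by transcript length, so a level is comparable between samples but not between genes.

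Ischemia and sham were compared to ask whether proteasome expression differed 7 days after the insult. Most subunit genes had slightly lower values in the ischemic monkeys, and a few regulatory particle genes had higher ones. Of the 37 subunits 31 had a lower and 6 a higher fitted value, where 52.6% of all 17522 genes tested had a lower one. The median log2 fold change of the subunits was -0.19, against -0.019 over all genes, and the medians within the 3 pairs were -0.10, -0.26 and -0.17, against -0.034, 0.004 and 0.000 over all genes. No subunit passed at an adjusted p under 0.05 in edgeR, and neither did any other gene (0% of all genes), the smallest adjusted p of a subunit being 0.21. At an unadjusted p under 0.05, 9 subunits were lower and 0 higher, where 8.04% of all genes were lower and 8.38% higher. DESeq2 called 2 subunits lower and 0 higher at an adjusted p under 0.05, where 2.48% of all genes were lower and 3.85% higher, and its unadjusted p was under 0.05 for 5 lower subunits and 1 higher one (8.52% and 9.27% of all genes).

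The direction was the same in every pair for most subunits, while the levels of the groups overlapped. The ischemic monkey of every pair was lower in 25 of 37 subunits (22.8% of all genes) and higher in 2, PSMC2 and PSMD11 (20.4% of all genes). In no subunit were all 3 ischemic monkeys below or above all 3 sham monkeys, which held for 2.76% and 2.44% of all genes. Compared fragment by fragment, PSMA7 and PSMB10 were lower in all 9 pairs of same-numbered fragments (2.01% of all genes) and PSMC2 was higher in all 9 (1% of all genes). Without the first pair, 28 subunits were lower in both remaining pairs (34.9% of all genes). The count of 9 depended on the setting: it was 0 without the A2 libraries and 0 without the pair block, 4 without the 3 libraries with POLE2 reads, 2 without MK501 or its partner MK507, 3 without MK506 or its partner MK508, 13 without the first pair and 10 without library A2MK501. With library totals in place of TMM it was 4 lower and 1 higher.

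**Figure D1:**
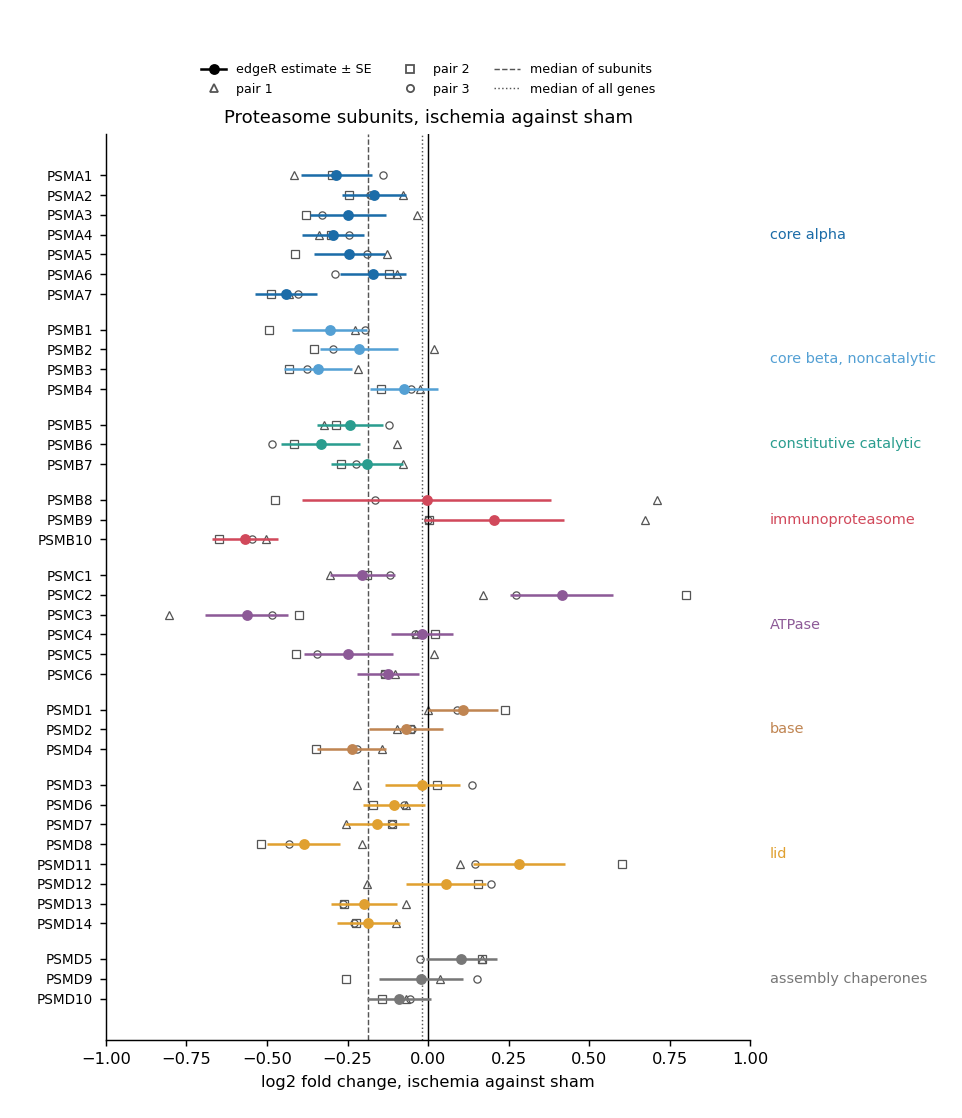
The log2 fold change of ischemia against sham is drawn for each of the 37 subunits tested, grouped by place in the complex. Filled circles and bars are the edgeR estimate and its SE, derived from the F statistic of the fit over 3 pairs. Open symbols are the difference within each pair. The dashed line is the median of the subunits (-0.19) and the dotted line that of all genes (-0.019). Most core subunits lie left of both, PSMB10, PSMC3 and PSMA7 lie farthest left, and PSMC2 and PSMD11 lie to the right.

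The alpha subunits all lay to the same side. All 7 that were tested had a lower value, in every pair, with log2 fold changes between -0.44 and -0.17 (median -0.25), and 3 of them were under an unadjusted p of 0.05 (PSMA7, PSMA4 and PSMA1). PSMA7 had 119, 66.9 and 94.5 CPM in the sham monkeys MK501, MK504 and MK508, and 84.8, 49.6 and 71.5 CPM in their ischemic partners MK507, MK503 and MK506. Each ischemic monkey was below its partner, but MK507 and MK506 were above the sham monkey of the first pair. The log2 fold change of PSMA7 was -0.44 ± 0.10 (SE; adjusted p = 0.21). This SE, like every other SE of a log2 fold change here, was derived from the F statistic of the fit over 3 pairs. It is not the spread of the 3 pair differences. PSMA4 averaged 84.0 ± 17.6 CPM (SD, n = 3) in sham and 68.6 ± 15.4 CPM in ischemia, a log2 fold change of -0.29 ± 0.10 (adjusted p = 0.26). PSMA1, the alpha subunit with the highest mean count, averaged 104.7 ± 23.3 and 86.5 ± 21.9 CPM, a log2 fold change of -0.28 ± 0.11 (adjusted p = 0.30). The 4 others, PSMA2, PSMA3, PSMA5 and PSMA6, lay between -0.25 and -0.17. In single libraries PSMA7 ranged from 55.7 to 140 CPM in sham (median 105) and from 47.1 to 93.8 CPM in ischemia (median 62.3).

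The beta subunits without a cutting site, which hold the ring together, lay close to the alpha subunits. All 4 had a lower value (median -0.26), 2 of them at an unadjusted p under 0.05, and 3 were lower in every pair. PSMB3 averaged 53.8 ± 22.0 CPM in sham and 41.7 ± 14.5 CPM in ischemia, a log2 fold change of -0.34 ± 0.10 (adjusted p = 0.24). PSMB1 averaged 123 ± 54.7 and 97.8 ± 35.9 CPM, a log2 fold change of -0.31 ± 0.12 (adjusted p = 0.30). PSMB4, with the highest mean count of the 4, had a log2 fold change of -0.07 ± 0.11 (adjusted p = 0.75), within its error of 0. PSMB2 was the one not lower in every pair, at 0.02, -0.35 and -0.30 in pairs 1, 2 and 3.

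The constitutive catalytic subunits were lower in each of the 3 pairs as well. PSMB6, which cuts after acidic residues, had 134, 47.0 and 116 CPM in MK501, MK504 and MK508, and 101, 44.0 and 82.7 CPM in their partners MK507, MK503 and MK506. The first pair was the lowest in both groups and differed least within itself. The log2 fold change of PSMB6 was -0.33 ± 0.12 (adjusted p = 0.29). PSMB5, which cuts after hydrophobic residues, averaged 87.2 ± 41.0 CPM in sham and 74.5 ± 36.1 CPM in ischemia, a log2 fold change of -0.24 ± 0.10 (adjusted p = 0.32). PSMB7, which cuts after basic residues, averaged 159 ± 50.1 and 137 ± 35.6 CPM, a log2 fold change of -0.19 ± 0.11 (adjusted p = 0.43).

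The 3 immunoproteasome subunits did not move together. PSMB10 had 77.5, 15.1 and 47.6 CPM in MK501, MK504 and MK508, and 49.4, 10.7 and 32.6 CPM in their partners MK507, MK503 and MK506. Every ischemic monkey was below its partner, while the groups overlapped. The ischemic monkey MK507 was above the sham monkey MK508, and both monkeys of the first pair were far below the others. The log2 fold change of PSMB10 was -0.57 ± 0.10 (edgeR adjusted p = 0.21, DESeq2 adjusted p = 0.013), with -0.50, -0.65 and -0.55 in the 3 pairs. PSMB10 is on the study's own list of down-regulated genes, which was drawn from these samples, so its direction is not independent evidence.

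PSMB9 and PSMB8 lacked such a pattern. PSMB9 had 8.11, 1.86 and 6.91 CPM in MK501, MK504 and MK508, and 8.14, 2.97 and 6.91 CPM in MK507, MK503 and MK506. Pairs 2 and 3 were nearly level, and only the first pair differed, with the ischemic monkey higher. PSMB9 had a log2 fold change of 0.20 ± 0.22 (adjusted p = 0.66). PSMB8 had 6.78, 1.76 and 4.16 CPM in MK501, MK504 and MK508, and 4.87, 2.89 and 3.71 CPM in MK507, MK503 and MK506. The first pair went up and the other pairs went down. Its log2 fold change was -0.00 ± 0.39 (adjusted p = 0.996), the widest error of all 37 subunits, whose SEs had a median of 0.11.

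**Figure D2:**
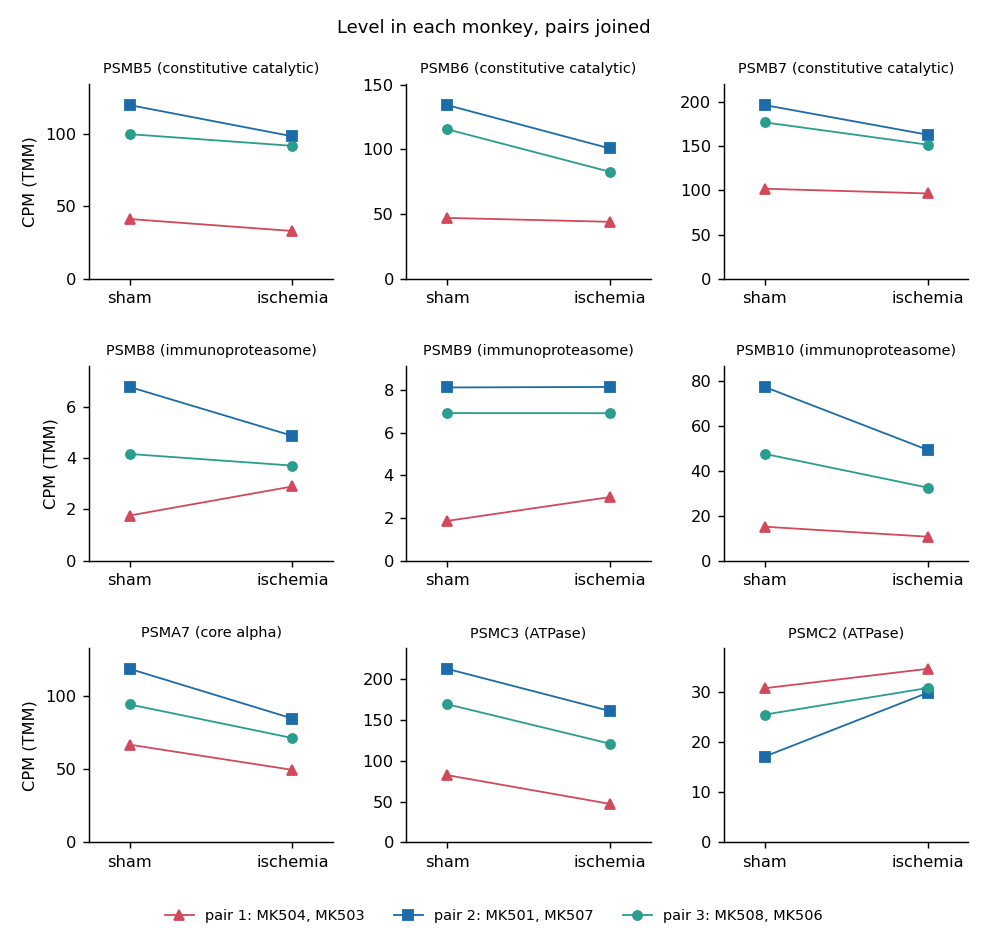
The CPM (TMM normalized) of 9 subunits is drawn for each monkey, sham at the left and ischemia at the right of each panel, with the 2 monkeys of a pair joined by a line. PSMB10, PSMA7 and PSMC3 go down in all 3 pairs, PSMC2 goes up in all 3, and PSMB8 and PSMB9 go up in the first pair.

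Library A2MK501 bore on PSMB8 and PSMB9 and less on PSMB10. In the 9 sham libraries PSMB8 lay between 1.30 and 15.1 CPM (median 3.25), the highest being A2MK501 and the next highest 4.79 CPM. PSMB9 lay between 1.22 and 14.4 CPM (median 5.66), again highest in A2MK501. PSMB10 was highest in A3MK501 (92.6 CPM) and reached 74.7 CPM in A2MK501. In A2MK501 the 7 endothelial markers also summed to more (390 CPM, against 154 to 226 CPM in the other 17 libraries), as did the 13 antigen presentation and interferon genes (2064 CPM, against 593 to 1545). The 10 microglia markers summed to 340 CPM there, within the range of the other libraries (178 to 408). Their part was not tested. Without A2MK501, the log2 fold change of PSMB8 turned to 0.31 and that of PSMB9 moved to 0.37, while that of PSMB10 stayed at -0.59.

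**Figure D3:**
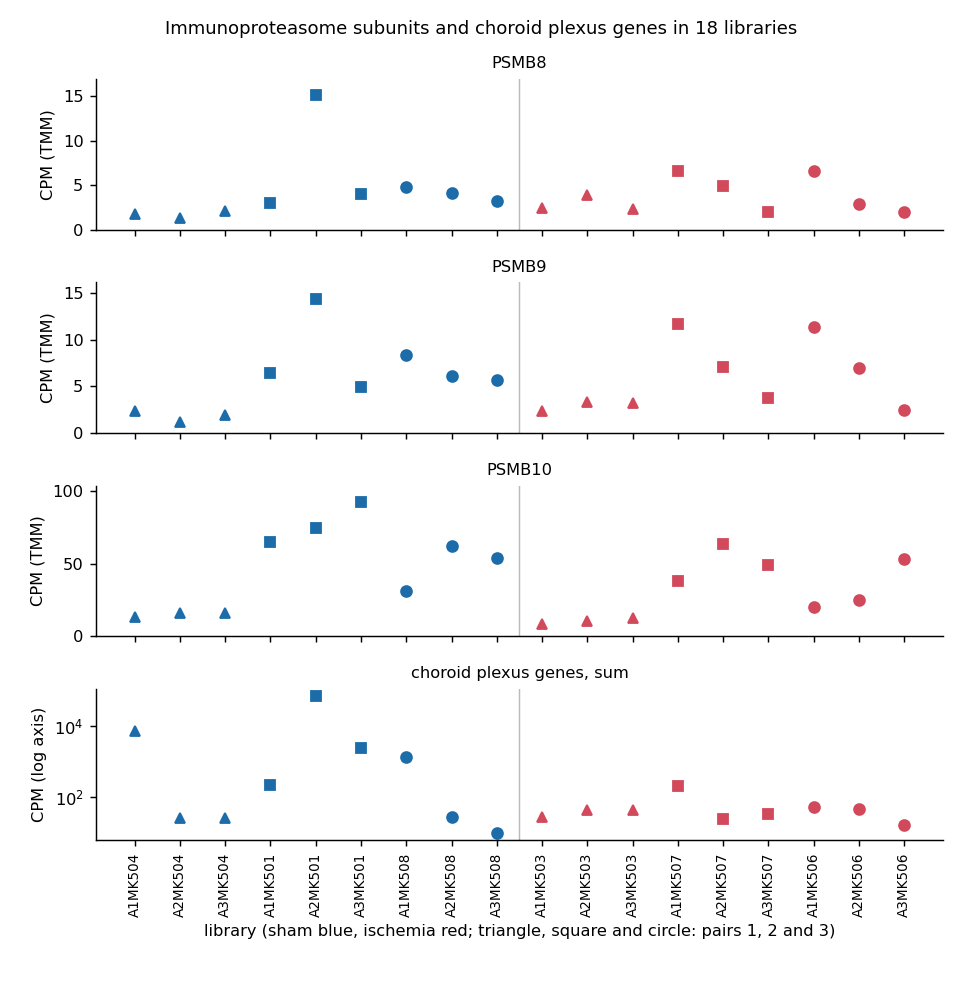
The CPM of PSMB8, PSMB9 and PSMB10 (TMM normalized, linear axes from 0) and the summed CPM of 7 choroid plexus genes (log axis) are drawn for each of the 18 libraries, sham in blue and ischemia in red, with a symbol for each pair. The sham library A2MK501 is the highest for PSMB8 (15.1 CPM), PSMB9 (14.4 CPM) and the choroid plexus genes (69960 CPM), but not for PSMB10, and all 6 libraries of the first pair (triangles) are low for PSMB10.

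Ratios within a sample are free of the scaling between samples. Because the counts are not divided by length, each ratio is comparable between samples only. Counts of the 3 immunoproteasome subunits together made 20.5, 9.84 and 14.9% of those of the 3 constitutive catalytic subunits in MK501, MK504 and MK508, and 17.2, 9.52 and 13.2% in MK507, MK503 and MK506. The ratio was lower in the ischemic monkey of each pair, by less than the spread between pairs, and the groups overlapped. Of the 3 exchanges, PSMB10 to PSMB7 was lower in all 3 pairs (log2 differences -0.43, -0.38 and -0.33). PSMB9 to PSMB6 was higher in all 3 pairs (0.78, 0.42 and 0.48) and its groups did not overlap. It was 6.04, 3.95 and 5.98% in MK501, MK504 and MK508 and 8.08, 6.77 and 8.35% in MK507, MK503 and MK506. In pairs 2 and 3 PSMB9 itself was level (0.004 and -0.001) and PSMB6 was lower (-0.42 and -0.48). Pair 1 rested on 75 and 110 counts of PSMB9 in MK504 and MK503. PSMB8 to PSMB5 was higher in 1 pair and lower in 2. The ratio of PSMB10 to PSMB9, chosen after the values were seen, did not overlap between groups either, at 956, 813 and 689% in MK501, MK504 and MK508 and 608, 358 and 472% in MK507, MK503 and MK506. Without A2MK501 the groups of both ratios were still apart. In an exact two-sided permutation test over splits of 3 against 3 monkeys, which left the pairs out, both gave p = 0.1. That is the smallest p such splits allow, and the adjusted p over the 8 ratios computed was 0.4 for both. The core to regulatory particle ratio was lower in the ischemic monkey of each pair (95.4, 72.8 and 84.8% in MK501, MK504 and MK508, 84.8, 70.5 and 79.6% in MK507, MK503 and MK506), with overlapping groups and an exact p of 0.5.

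The ATPases, which unfold substrates and open the gate of the core, diverged among themselves. PSMC3 and PSMC2 had opposite signs in every pair. PSMC3, whose tail is known to dock into the alpha ring, had 213, 82.4 and 169 CPM in MK501, MK504 and MK508, and 161, 47.2 and 121 CPM in MK507, MK503 and MK506. All 3 ischemic monkeys were below their partners, and the first pair was the lowest in both groups. Its log2 fold change was -0.56 ± 0.13 (edgeR adjusted p = 0.21, DESeq2 adjusted p = 0.020), and it moved to -0.36 without the 3 libraries with POLE2 reads. PSMC2 had 17.1, 30.7 and 25.4 CPM in MK501, MK504 and MK508, and 29.8, 34.5 and 30.7 CPM in MK507, MK503 and MK506. The ischemic monkeys lay within 29.8 to 34.5 CPM, and the sham monkeys spread below that down to MK501, so that the groups overlapped only at the sham monkey of the first pair. Its log2 fold change was 0.41 ± 0.16 (adjusted p = 0.30), the highest of the 37, and it was 0.24 without the pair of MK501. In the libraries PSMC2 lay between 29.5 and 37.9 CPM in ischemia and between 11.4 (A2MK501) and 32.5 CPM in sham.

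The other ATPases stayed closer to 0. PSMC5, with the highest mean count of the 6, averaged 201 ± 129 CPM in sham and 159 ± 91.5 CPM in ischemia, a log2 fold change of -0.25 ± 0.14 (adjusted p = 0.41). PSMC1, PSMC6 and PSMC4 were at -0.20, -0.12 and -0.02. Over the 6 ATPases, 5 had a lower value (median -0.16), 1 of them at an unadjusted p under 0.05. Counts of PSMC3 made 1246, 269 and 666% of those of PSMC2 in MK501, MK504 and MK508. In MK507, MK503 and MK506 they made 541, 137 and 394%. The groups overlapped (exact permutation test p = 0.4). Both genes were named for the smallest p among the ATPases and had opposite signs, so the lower ratio in ischemia follows from that choice.

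Scaffold and ubiquitin-binding subunits of the base differed little. PSMD4, a receptor for ubiquitin chains, averaged 120.0 ± 53.0 CPM in sham and 100.1 ± 39.4 CPM in ischemia, a log2 fold change of -0.24 ± 0.11 (adjusted p = 0.34). The large scaffold subunits PSMD1 and PSMD2, to which substrates and shuttle factors bind, were at 0.11 ± 0.11 (adjusted p = 0.64) and -0.07 ± 0.11 (adjusted p = 0.79). The median of the 3 was -0.07, and 0.005 without the 3 libraries with POLE2 reads.

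In the lid, 6 of 8 subunits had a lower value (median -0.13), 1 of them at an unadjusted p under 0.05. That was PSMD8, with 74.7, 26.0 and 56.6 CPM in MK501, MK504 and MK508, and 52.1, 22.6 and 42.0 CPM in MK507, MK503 and MK506. Each ischemic monkey was below its partner, and the groups overlapped. PSMD8 had a log2 fold change of -0.39 ± 0.11 (adjusted p = 0.24). PSMD11, a lid subunit whose level is known to limit proteasome assembly in human embryonic stem cells, went the other way, with 25.9, 39.0 and 39.4 CPM in MK501, MK504 and MK508, and 39.3, 41.8 and 43.6 CPM in MK507, MK503 and MK506. Its difference came mainly from the second pair, where the sham monkey MK501 was the lowest of the 6. The log2 fold change was 0.28 ± 0.14 (adjusted p = 0.37), and 0.14 without that pair. PSMD3, with the highest mean count in the lid, was at -0.02 ± 0.12 (adjusted p = 0.95). PSMD14, the subunit that cleaves ubiquitin from substrates, and its partner PSMD7 were at -0.19 and -0.16, and both were lower in every pair.

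PSMD5, PSMD9 and PSMD10 are chaperones that help to assemble the base and are not part of the finished complex. PSMD5 was at 0.10 ± 0.11 (adjusted p = 0.66), PSMD9 at -0.02 ± 0.13 (adjusted p = 0.94) and PSMD10 at -0.09 ± 0.10 (adjusted p = 0.67). Each was within its error of 0, and the median of -0.02 turned to 0.09 without the pair of MK501. An antisense gene of PSMD5 also has a row in the table, and reads of both could not be told apart because the library kit does not mark strand.

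Genes that assemble, regulate or feed the proteasome were less uniform than the core. Of 21 assembly and regulation genes, 15 had a lower and 6 a higher value (median -0.06), 3 were lower and 1 was higher at an unadjusted p under 0.05, and DESeq2 called 2 lower and 1 higher at an adjusted p under 0.05. SHFM1, which encodes the smallest lid component, had 99.6, 16.0 and 83.0 CPM in MK501, MK504 and MK508, and 62.4, 12.1 and 56.3 CPM in MK507, MK503 and MK506. All ischemic monkeys were below their partners, with a log2 fold change of -0.55 ± 0.11 (edgeR adjusted p = 0.21, DESeq2 adjusted p = 0.021). NFE2L2, a transcription factor of the oxidative stress response that also controls proteasome genes, had 56.7, 67.5 and 91.2 CPM in MK501, MK504 and MK508, and 88.5, 121 and 111 CPM in MK507, MK503 and MK506. It was higher in every pair, with a log2 fold change of 0.58 ± 0.14 (edgeR adjusted p = 0.22, DESeq2 adjusted p = 0.032).

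The remaining lists gave no call in either tool. Among 14 ubiquitin and shuttle genes 6 had a lower and 8 a higher value (median 0.02), and 1, the shuttle gene UBQLN2 (log2 fold change -0.31 ± 0.12), was lower at an unadjusted p under 0.05. The COP9 signalosome, a complex built like the lid, had 6 of 9 genes with a lower value (median -0.02), led by COPS6 (-0.27 ± 0.12) and GPS1 (-0.20 ± 0.10). Among 13 antigen presentation and interferon genes 5 had a lower and 8 a higher value (median 0.07), and 1 was higher at an unadjusted p under 0.05, the interferon signal transducer gene STAT2 (0.35 ± 0.10, adjusted p = 0.24). TAPBP, a chaperone of peptide loading, was at -0.25 ± 0.11 (adjusted p = 0.33).

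The difference between the first pair and the other 4 monkeys was larger than that between ischemia and sham. In the first pair 31 of 37 subunits were lower in both monkeys than in all 4 others (36.4% of all genes) and 3 were higher in both (34% of all genes). The median log2 difference was -0.79, against -0.06 over all genes, and ran from -2.18 for PSMC5 to 0.62 for PSMD5. By group the medians were -0.60 for alpha subunits, -1.07 for noncatalytic beta subunits, -1.23 for constitutive catalytic subunits, -1.66 for immunoproteasome subunits, -0.61 for ATPases, -0.52 for the base and -0.36 for the lid. PSMC5 had 53.0 and 53.7 CPM in MK504 and MK503 and between 211 and 281 CPM in the other 4 monkeys. PSMC2, PSMC6, PSMD1, PSMD11, PSMD12 and PSMD5 were the 6 subunits with a higher mean in the first pair. PSMD1, for example, had 141 CPM in both of its monkeys and 91.1 to 108 CPM in the others. These monkeys also differ in depth and in MALAT1 (above), and the part of either was not tested. Since each pair holds 1 monkey of each group, the pair block takes this difference out of the comparison of ischemia and sham.

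**Figure D4:**
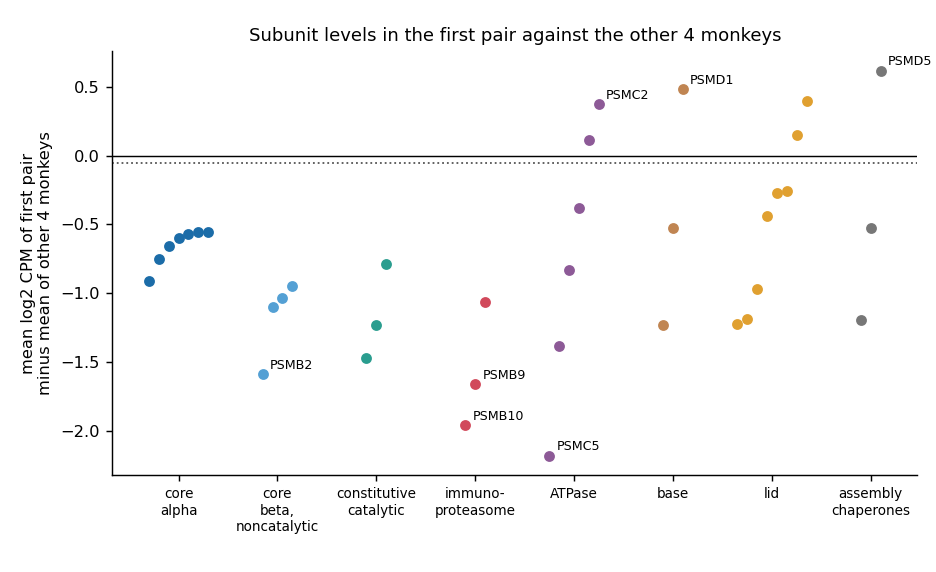
Each point is a subunit, placed by its group on the x axis and by the mean log2 CPM of the 2 monkeys of the first pair minus the mean of the other 4 monkeys on the y axis, with a dotted line at the median of all genes (-0.06). Points lie below the dotted line in 31 of 37 subunits, lowest for PSMC5 (-2.18) and PSMB10 (-1.96), and highest for PSMD5 (0.62).

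Adjacent fragments were compared within monkeys by their A number. Whether a number marks the same position in every monkey is not given in the labels, so the order of the fragments cannot be read as an order of places. Many subunits were lowest in A1. The fitted levels followed the order A1, A2, A3 from low to high in 26 of 37 subunits (28.8% of all genes), and without the first pair in 25 (27.5% of all genes). The median log2 difference of A3 from A1 was 0.19 over the subunits and -0.02 over all genes, and without the first pair 0.23 and 0.005. No subunit passed at an adjusted p under 0.05 in edgeR (0% of all genes, smallest adjusted p of a subunit 0.41), while 9 were under an unadjusted p of 0.05 (11.6% of all genes) and DESeq2 called 1, PSMA7, at an adjusted p under 0.05 (1.22% of all genes). The 9 were PSMA1, PSMA7, PSMB1, PSMB3, PSMB5, PSMB6, PSMB10, PSMC3 and PSMD8. That count was 3 without the first pair, without the 3 libraries with POLE2 reads, without MK504, without MK507 and with library totals alone, and 5 without MK501 or without MK508.

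The immunoproteasome subunits also differed from one another by fragment. PSMB10 averaged 29.3, 42.0 and 46.3 CPM in A1, A2 and A3, with log2 differences from A1 of 0.48 and 0.67. PSMB9 went the other way, at 7.08, 6.52 and 3.68 CPM, with log2 differences of -0.20 and -0.79. PSMB8 averaged 4.19, 5.36 and 2.60 CPM, and its A2 mean rested on A2MK501 (15.1 CPM), since the other 5 A2 libraries averaged 3.41 CPM, below A1. Without that library the A2 means of PSMB9 and PSMB10 were 4.95 and 35.4 CPM. None passed in the fragment test (adjusted p = 0.41 for PSMB10, 0.47 for PSMB9 and 0.52 for PSMB8). PSMC3 averaged 104, 135 and 160 CPM (adjusted p = 0.41) and PSMC2 29.4, 27.4 and 27.0 CPM (adjusted p = 0.70). The summed striatal neuron markers were higher in A3 than in A1 in all 6 monkeys (median log2 difference 1.42, 6 of 7 genes under an unadjusted fragment p of 0.05, 0 at an adjusted p). Oligodendrocyte markers had a median of -1.24, but 0 of 6 were under that threshold, and their sum was lower in A3 in 5 monkeys and higher in MK508 (6857 CPM in A1, 42565 in A3). Antigen presentation and interferon genes had a median of -0.52, with 3 of 13 under that threshold and a lower sum in 5 of 6 monkeys. Their part in the fragment differences was not tested.

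**Figure D5:**
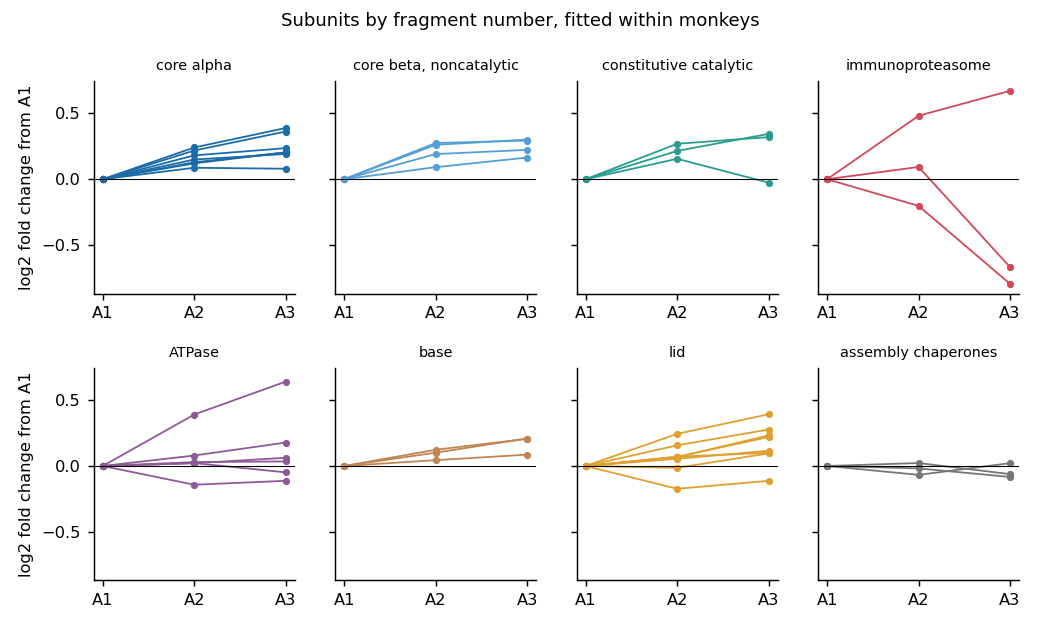
The fitted log2 difference from A1 is drawn for fragments A1, A2 and A3, with a line for each subunit and a panel for each group. Lines of the alpha and noncatalytic beta subunits lie above 0 in A2 and A3, and in the immunoproteasome panel PSMB10 reaches 0.67 while PSMB8 and PSMB9 end at -0.67 and -0.79.

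The size of the ischemia difference was also compared between fragments. No subunit and no other gene passed at an adjusted p under 0.05 in edgeR (0% of all genes, smallest adjusted p of a subunit 0.45). At an unadjusted p under 0.05 there were 2 subunits, PSMA2 and PSMB2, where 10% of all genes were under that threshold, and DESeq2 gave 4 subunits there (13.4% of all genes) and 0 at an adjusted p under 0.05 (3.17% of all genes). That count was 0 without MK503, MK506 or MK508 and with library totals alone, and 1 without MK501 or MK504. The median over the subunits was below 0 in A2 in all 3 pairs (-0.27, -0.12 and -0.41) and in A3 in all 3 (-0.08, -0.31 and -0.11). In A1 it was 0.09, -0.24 and 0.03. So no difference of the ischemia effect between fragments was called for a subunit at an adjusted p under 0.05 in either tool. That does not show that there was none.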

How the data were processed

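RNA of 18 SVZa libraries was sequenced after TruSeq RNA preparation, which does not mark strand. For base calling the authors used CASAVA (1.8.2), for read quality FastQC (0.10.0) and for counting bedtools (2.16.2). Alignment was by TopHat2 (2.0.8) against Macaca mulatta, annotated by RhesusBase. The deposited values are raw counts per human RefSeq transcript, not normalized. How reads that match several places were handled is not given in the sources used here, and some proteasome genes have processed pseudogenes. The table held 0 columns of other samples.

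Each monkey's 3 libraries were added up. Ischemia and sham were compared over 6 monkeys in edgeR (4.0.16; filterByExpr, TMM, robust quasi-likelihood F test, 17522 genes) with pair and condition as terms and Benjamini-Hochberg adjustment over all genes tested (threshold 0.05). Pairs are same-numbered columns of the study's expression table, of which 1957 rows were used to match each column to a monkey (the median absolute difference in log2 was at most 0.0276, and at least 0.2042 for the next best monkey). Within pairs, deviations from the means of the groups had r = 0.874, 0.767 and 0.65 (Pearson, across genes, which are not independent replicates), and the monkeys were treated as paired. Unmatched monkeys of pairs 2 and 3 also had r = 0.622 and 0.467, so these values set pair 1 apart more than they tell pairs 2 and 3 from each other. Fragment numbers and their interaction with ischemia were tested over the 18 libraries with the monkey as a block. A prior count of 2 entered log2 values. The SE of a log2 fold change is its absolute value divided by the square root of F from the quasi-likelihood test. R was version 4.3.3. Alternatives used limma (3.58.1), DESeq2 (1.42.0), and other normalizations, filters, rows and left-out libraries. Tables and figures were made in Python (3.11.15). The fits were tested on simulated data. At these depths the spread left after the pair term sets the precision of most subunits, and counting error weighs for PSMB8 and PSMB9. The biological coefficient of variation of that fit was 0.212, a common value over all genes and not one of the subunits. Libraries of 1 monkey were not copies of each other (chi-square of at least 10.9 times its degrees of freedom).

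Members and gene lists were chosen with earlier results of these data known. Named in full are PSMB5 to PSMB10 and, in each other group, the 2 members with the smallest p and the 1 with the highest mean CPM, and up to 2 genes of each further list by smallest p. Other names were chosen after their values were seen.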

Additional observations from a re-analysis of the deposited data

Results flagged for a closer look

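PSMB8 stood at 15.09 CPM in the sham library A2MK501, against 4.789 CPM in the next highest of the 9 sham libraries, a gap of 0.747 of the group's whole range (Dixon's 95% limit for 9 values is 0.493). It was the only such value in 74 groups of 9 libraries (37 subunits in 2 conditions), and chance alone gives about 1 in 20.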

How the results depend on the processing

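Of the 37 subunits, 29 kept the sign of their log2 fold change under all alternatives, and 0 subunits passed at an adjusted p under 0.05 in edgeR on monkey sums under any of them. DESeq2 called 2, the 18 libraries taken as 9 against 9 called 5 and limma with a random monkey block called 7. The last 2 use the libraries of a monkey as samples, so the former has p-values that are too small. Shares of all genes in these 2 library fits are not given here, so none of their counts has a baseline. The 9 subunits lower at an unadjusted p under 0.05 became 4 with library totals alone and without the 3 libraries with POLE2 reads, 5 in DESeq2, 18 and 19 in the library fits, 0 without the replicate block and 0 without the A2 libraries, and 2 to 13 when each monkey was left out with its partner. The count of higher ones, 0, became 1 with DESeq2 size factors, library totals alone, DESeq2, no filter, without the A2 libraries and without library A2MK501, 2 without the A3 libraries and in both library fits, and 0 to 1 without each monkey. The fragment count of 9 became 3 with library totals alone, without the first pair and without the POLE2 libraries, and 3 to 8 without each monkey, and DESeq2 called 1 at an adjusted p. The interaction count of 2 became 0 with library totals alone, 4 in DESeq2 and 0 to 3 without each monkey.

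The median log2 fold change of the ATPases (-0.164) became -0.107 with library totals alone and -0.219 without the A1 libraries. That of the base (-0.068) became -0.01 with library totals alone, -0.039 without the A2 libraries, 0.005 without the POLE2 libraries and -0.099 without A2MK501, and -0.062 to -0.048 without each monkey. That of the lid (-0.132) became -0.075, -0.191, -0.102, -0.098 and -0.079 with library totals alone and without the A1, A2, A3 and POLE2 libraries, and -0.128 to -0.098 without each monkey. That of the assembly chaperones (-0.023) became -0.159 without the A1 libraries and -0.092 to 0.091 without each monkey. The cause was not tested. Leaving out the POLE2 libraries, the first pair from the fragment test and A2MK501 was chosen after the data were seen. The number of pairs limits the precision, and PSMB8 and PSMB9 are limited by counts as well.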
